A study of Mus with 18 samples.

Results

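The transcripts of 77 cytosolic ribosomal protein genes were followed across mouse C2C12 cultures and mouse gastrocnemius muscle, in control, lipopolysaccharide (LPS) and LPS-MIC-1 samples. The genes were taken by name, as every row whose symbol is Rpl or Rps followed by a number and at most the letter a, x or l, together with Rplp0, Rplp1, Rplp2 and Rpsa. A mean above 1 FPKM, a read count scaled by transcript length and library size (fragments per kilobase and mapped fragments), in either experiment was also required. Of 21401 genes in each table, 79 symbols matched, and 77 passed the level rule, 46 of the large subunit and 31 of the small subunit. The 2 that did not pass were the paralogs Rpl10l, at 0.00 FPKM in both experiments, and Rpl39l, at 0.03 FPKM in C2C12 and 0.09 FPKM in muscle. All 77 were above the level in muscle, where Rps19 was just inside it at 1.41 FPKM, and 75 were above it in C2C12, where Rpl29 was just outside it at 0.988 FPKM and Rpl3l was at 0.339 FPKM. Statistics below therefore cover 75 members in C2C12 and 77 in muscle.

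RNA-seq was available for 18 libraries, 3 in each of 3 groups in 2 experiments. The C2C12 samples carry the label of a wild-type mouse myoblast line and received saline (control), 1 µg/mL LPS, an outer membrane component of Gram-negative bacteria that triggers inflammation, or 1 µg/mL LPS with 10 µM moringa isothiocyanate-1 (MIC-1), a compound from Moringa oleifera, for 24 h. The labels give 10 µM and saline, whereas the study's text names 1 µM for these libraries and an ethanol vehicle for cells. The muscle samples came from wild-type male C57BL/6 mice, which received saline (control), 10 mg/kg LPS into the peritoneum, or the same LPS after 80 mg/kg MIC-1 in 10% DMSO by gavage daily for 3 days, with collection 16 h after LPS. The labels thus name DMSO for the LPS-MIC-1 mice alone, whereas the study's text also names 10% DMSO by mouth for the mouse controls. The age of the mice was not given in the sources used here, no group received MIC-1 alone, and nothing states that the cell replicates were separate cultures, so p-values measure the spread between these samples only.

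Cell type markers did not follow the C2C12 labels. Summed over 15 macrophage markers, the C2C12 libraries labelled control held 14346 to 14404 FPKM, and those labelled LPS held 9215 to 9466 FPKM. The LPS-MIC-1 libraries held 334 FPKM in replicate 1, 80.7 FPKM in replicate 2 and 105 FPKM in replicate 3. For 11 myogenic markers the order was opposite, with 1.22 to 1.59 FPKM in the controls, 2.43 to 4.66 FPKM with LPS and 1081 to 1371 FPKM in LPS-MIC-1 libraries. All 15 macrophage markers averaged above 1 FPKM in the control and LPS groups and 13 did in LPS-MIC-1, while 4 of the 11 myogenic markers were listed at 0 in every control library, 3 in every LPS library and 0 in LPS-MIC-1. In every C2C12 comparison with the LPS-MIC-1 libraries, the added compound and this difference in marker content cannot be told apart. In muscle, 15 fibre markers were above 1 FPKM in every group, and macrophage markers summed to 22.8 to 25.3 FPKM in the controls, 29.5 to 33.2 FPKM with LPS, and 45.7, 44.6 and 272 FPKM in LPS-MIC-1 replicates 1, 2 and 3. Muscle LPS-MIC-1 replicate 3 therefore stood apart, and counts of members and of genes in related lists that use it are given with and without it. In bulk samples, fewer cells of a type and less RNA per cell cannot be told apart.

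Ribosomal proteins surround the catalytic RNA of the ribosome. Each is needed in about equal numbers, their messengers are among the most abundant in growing cells, and many start with a terminal oligopyrimidine (TOP) tract through which nutrient and growth signals control their translation. Striated muscle differs from other tissues in that Rpl3l, a paralog restricted to skeletal muscle and heart, largely takes the place of Rpl3, whose protein reaches close to the site of peptide bond formation.

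The family was abundant in both experiments, but its level and the place of some members differed. In C2C12 the median member averaged 1490 FPKM over the 9 libraries and 53 members were above 1000 FPKM. In muscle the median member averaged 361 FPKM and 3 members were above 1000 FPKM. The 2 tables were normalised separately, so levels are set side by side here without a test. By mean over the 9 libraries, the most abundant member in C2C12 was Rpl41, which encodes a very short basic peptide of the large subunit (5775 FPKM). Next were Rplp1 of the acidic stalk that recruits translation factors (5037 FPKM) and Rps26 at the messenger exit (4808 FPKM). Rpl35 near the peptide exit tunnel (3931 FPKM) and Rps15 of the small subunit head (3638 FPKM) followed. In muscle the 5 most abundant were Rplp1 (1688 FPKM), Rps2 at the messenger entry (1148 FPKM), Rpl35 (1007 FPKM), Rpl28 (937 FPKM) and Rps26 (909.6 FPKM). Rps26, Rpl35 and Rplp1 were thus among the first 5 in both tables. The C2C12 order differed by group. Rplp1 was above Rpl41 in the controls (4384 against 3257 FPKM) and with LPS (4918 against 3925 FPKM), and Rpl41 led with LPS-MIC-1 (10144 FPKM).

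The ratio of the C2C12 mean to the muscle mean had a median of 4.35 over the 77 members, and the order of levels was similar, with a Spearman rho of 0.83 over the 75 members above 1 FPKM in both tables. This correlation is across genes, which share transcript length and library, and carries no test. By means over all 9 libraries, only 4 members were lower in C2C12 than in muscle. They were Rpl3l (ratio 0.00064), Rpl26 (0.0197), Rpl29 (0.0255) and Rps18 (0.498). The C2C12 mean pools groups of unlike marker content, and single groups can differ from it. Rpl30 averaged 31.7 FPKM in C2C12 control, 22.2 FPKM with LPS and 2537 FPKM with LPS-MIC-1, against 322 to 352 FPKM in the muscle groups. With LPS, Rps27l and Rpl34 were also slightly lower in C2C12 than in muscle. The highest ratio belonged to Rpl3 (42.1), followed by Rps19 (20.5), a gene mutated in Diamond-Blackfan anaemia. The lowest levels above 1 FPKM were those of Rpl26, Rps6 and Rps19 in C2C12 (10.6, 20.4 and 29.0 FPKM) and of Rps19, Rps6 and Rps15a in muscle (1.41, 5.68 and 18.3 FPKM). Rps6, the phosphorylated target of S6 kinase, and Rps19 were thus far below the family median in both tables.

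**Figure D1:**
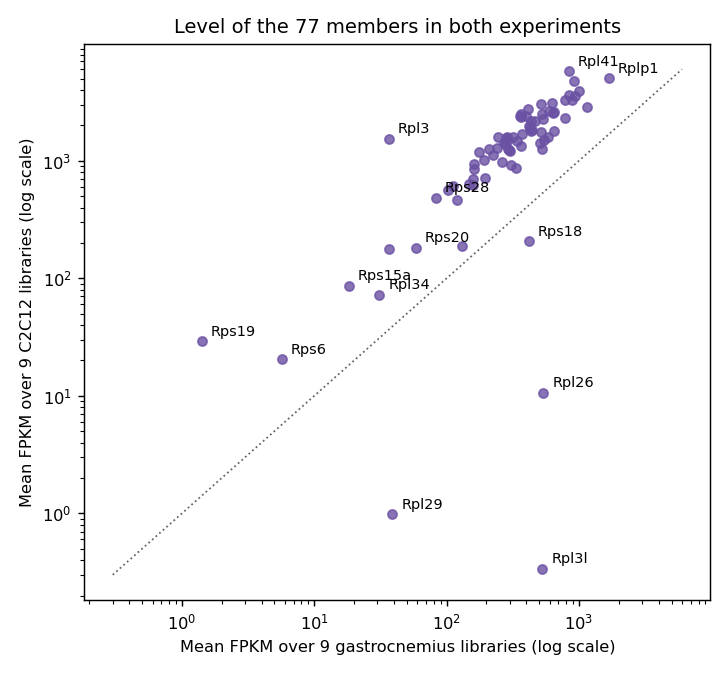
Mean FPKM of each of the 77 ribosomal protein genes over the 9 gastrocnemius libraries (horizontal, log scale) and over the 9 C2C12 libraries (vertical, log scale), 1 point per gene, with the dotted line marking equal values. Most points lie above the line (median ratio 4.35), Rpl3 lies far above it, and Rpl3l, Rpl29, Rpl26 and Rps18 lie below it.

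Levels of single members carry a further limit. Ribosomal protein genes have many near-identical processed pseudogenes, and the RefSeq annotation of GRCm38.p6 names 313 pseudogenes after 60 of the 77 members, among them 13 for Rps19 and 10 for Rpl30. Only 2 pseudogene rows with a ribosomal protein name were in the tables, Rpl34-ps1 and Rps19-ps3. How reads were divided among such copies was not tested, and values of single members are uncertain where copies share reads.

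The family took a different share of all FPKM in each group. In C2C12 the members held 19.1%, 19.1% and 19.6% of summed FPKM in the control libraries, 15.2%, 15.7% and 16.4% in the LPS libraries, and 23.1%, 22.5% and 24.0% in the LPS-MIC-1 libraries. The 3 groups did not overlap. Their group means were 19.3% ± 0.308 (SD, n = 3), 15.8% ± 0.579 and 23.2% ± 0.752. The summed FPKM itself was nearly equal in control (105839 ± 2157) and LPS (109439 ± 5141) and was higher in LPS-MIC-1 (166521 ± 22126). The lower share in LPS thus came with a larger total, 687390 to 701659 FPKM with LPS against 547475 to 552373 FPKM in the controls, and with 10 top genes that held 18.2 to 18.5% of FPKM with LPS against 7.32 to 7.35% in control. Those 10 genes include 4 members, and once they were left out of both sums the other 73 members held 18.0%, 16.4% and 20.6%, in the same order.

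In muscle the share was smaller. The members held 4.27%, 4.41% and 4.47% of summed FPKM in the controls, 4.06%, 4.14% and 4.10% in LPS, and 4.69%, 4.56% and 4.78% in LPS-MIC-1 libraries. The LPS libraries were below all control libraries and the LPS-MIC-1 libraries above them. The summed FPKM did not follow this order, since it was highest in control (32183 ± 1176), lower in LPS-MIC-1 (30814 ± 625) and lowest in LPS (29541 ± 530). The 10 top genes, led by Acta1 and Ckm, held 44.1 to 44.2% of FPKM in the controls, 41.6 to 41.8% with LPS and 35.2 to 35.8% with LPS-MIC-1. Without them the members held 7.85%, 7.03% and 7.26%, so the LPS-MIC-1 libraries were above control on 1 denominator and below it on the other, whereas LPS was lowest on both.

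**Figure D2:**
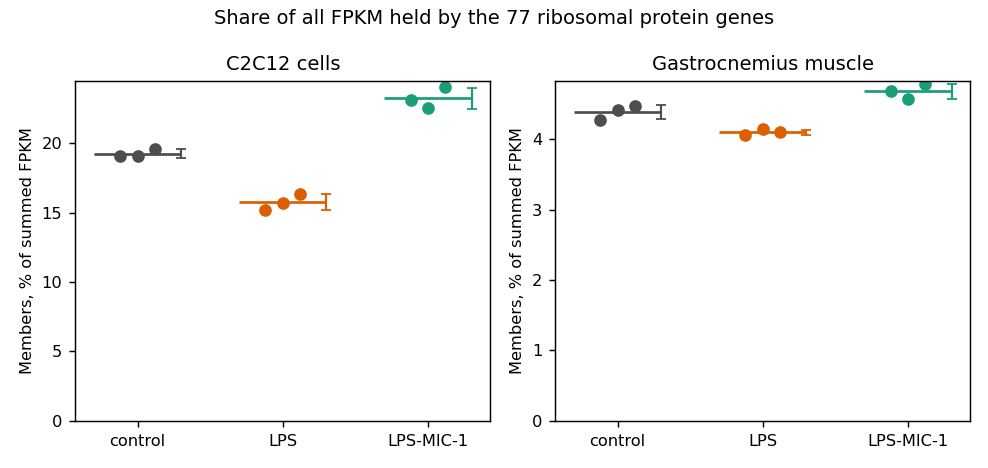
Percent of summed FPKM held by the 77 members in each library, by group, for C2C12 cells (left) and gastrocnemius muscle (right). Points are libraries, horizontal lines are means and bars are SD (n = 3), with C2C12 group means of 19.3%, 15.8% and 23.2% and muscle values between 4.06% and 4.78%.

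Rpl3 and Rpl3l, the paralog pair that marks muscle ribosomes, showed the clearest change in muscle. Rpl3 was at 20.5, 20.9 and 20.6 FPKM in the controls, 18.4, 17.7 and 18.2 FPKM with LPS, and 56.4, 67.4 and 88.9 FPKM in LPS-MIC-1 replicates 1, 2 and 3. All LPS-MIC-1 libraries were thus far above the others, and the LPS libraries were all below control. Rpl3 was 3.92-fold higher in LPS-MIC-1 than in LPS as a ratio of means, a log2 fold change of 1.94 (SE 0.14, limma adjusted p = 6.47e-06), and was 1.75 higher than in control on the log2 scale (adjusted p = 1.17e-05). Between LPS and control it differed by -0.19 (adjusted p = 0.398).

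Rpl3l was at 581, 585 and 602 FPKM in the controls, 554, 552 and 557 FPKM with LPS, and 450.3, 448 and 421 FPKM with LPS-MIC-1. The 3 groups did not overlap, and the LPS-MIC-1 libraries, highest for Rpl3, were lowest for Rpl3l. It fell in LPS-MIC-1 by a log2 fold change of -0.34 against LPS (SE 0.031, limma adjusted p = 3.13e-05) and of -0.42 against control (adjusted p = 7.49e-06). It differed by -0.09 between LPS and control (adjusted p = 0.0974). With every library rescaled to the same total FPKM, the values against LPS were 2.07 for Rpl3 and -0.21 for Rpl3l.

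As a share of the pair, Rpl3l made up 96.6% ± 0.069 (SD, n = 3) of the summed FPKM in the controls, 96.8% ± 0.051 after LPS and 86.1% ± 3.23 after LPS-MIC-1, with 88.9%, 86.9% and 82.6% in the 3 LPS-MIC-1 libraries. This share does not depend on how libraries are scaled. The pair summed to 609.8 FPKM in the controls, 573 FPKM with LPS and 511 FPKM with LPS-MIC-1, so the rise of Rpl3 was smaller in FPKM than the fall of Rpl3l.

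LPS-MIC-1 replicate 3, which carried the most macrophage marker FPKM, also had the highest Rpl3 and the lowest Rpl3l. Without this library, the limma log2 fold change against LPS was 1.76 for Rpl3 (SE 0.072, adjusted p = 1.6e-06) and -0.30 for Rpl3l (SE 0.023, adjusted p = 3.54e-05), and the range over all omissions of 1 library was 1.76 to 2.09 for Rpl3. Neutrophil markers also moved with the group, at 1.76 to 2.74 FPKM in the controls, 1.76 to 2.02 FPKM with LPS and 14.9 to 19.8 FPKM with LPS-MIC-1, as did fibre markers, at 254782 to 260130 FPKM with LPS and 198318 to 212336 FPKM with LPS-MIC-1. The part of these markers in the change of the pair was not tested.

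**Figure D3:**
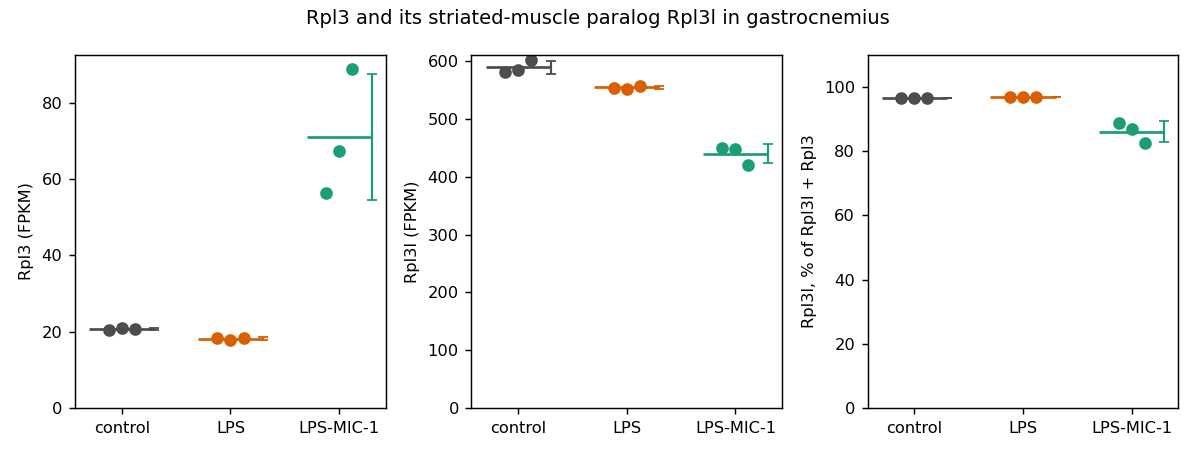
Rpl3 (left), Rpl3l (middle) and Rpl3l as a percent of both (right) in the 9 gastrocnemius libraries, as FPKM or percent, with points for libraries, lines for means and bars for SD (n = 3). Rpl3 rises from 17.7 to 20.9 FPKM in the controls and LPS to 56.4 to 88.9 FPKM with LPS-MIC-1, and Rpl3l falls to 421 to 450.3 FPKM.

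In C2C12 the pair was nearly all Rpl3. Rpl3l was at 0.404 to 0.515 FPKM in the controls, 0.204 to 0.409 FPKM with LPS and 0.0792 to 0.384 FPKM with LPS-MIC-1, and was not tested there. Rpl3 was at 1678, 1724 and 1752 FPKM in the controls, 1250.2, 1252 and 1269.9 FPKM with LPS, and 1588, 1490.2 and 1858 FPKM with LPS-MIC-1. The LPS libraries were the lowest, and the other groups overlapped. Rpl3 fell in LPS by -0.45 on the log2 scale (SE 0.085, limma adjusted p = 0.00193) and was higher in LPS-MIC-1 than in LPS by 0.38 (adjusted p = 0.00303), a call that was lost with quantile normalisation (0.06, adjusted p = 0.114). Against control, LPS-MIC-1 differed by -0.07 (adjusted p = 0.477).

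LPS against control in C2C12 tells how the family stood after LPS alone. It was mixed on the deposited scale, where 13 of 75 members rose and 9 fell at a limma adjusted p under 0.05, against 31.1% higher and 32.1% lower among all 10877 genes tested. The member median log2 fold change was 0.03, that of all genes 0.00. The result depended on scaling. With equal total FPKM, the median of all genes moved to -0.30 and that of the members to -0.31, with 0 members higher and 54 lower, and with quantile normalisation 6 were higher and 46 lower, with a member median of -0.22 against -0.05 for all genes. The groups did not overlap for 26 members higher in LPS and 20 lower, against 39.4% and 40.1% of all genes, and 44 members had a log2 fold change above 0, against 49.9% of all genes. At the thresholds of the study, which for cells were a change of more than 1 on the log2 scale with adjusted p under 0.001, 0 members rose or fell, against 10.9% and 10.0% of all genes.

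The 5 highest of the called members were Rps20, Rps27, Rps27a, Rpl9 and Rps24. Rps20 was at 122, 119 and 134 FPKM in the controls and 175, 182 and 207 FPKM with LPS, a log2 fold change of 0.59 (SE 0.125, limma adjusted p = 0.00352). The other four rose by 0.51, 0.44, 0.40 and 0.40 on the log2 scale. Rps27a encodes a fusion of ubiquitin with a small-subunit protein, and Rps24 is another Diamond-Blackfan anaemia gene. With equal total FPKM none of the 5 was called, at 0.25, 0.17, 0.10, 0.06 and 0.06, and with quantile normalisation Rps20, Rps27 and Rps24 were.

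The 5 lowest of the called members were Rpl34 (-0.83), Rps19 (-0.82), Rpl30 (-0.51), Rps2 (-0.50) and Rps27l (-0.48), and each remained called with equal total FPKM and with quantile normalisation. Rps2 was at 2563, 2511 and 2467 FPKM in the controls and 1771, 1799 and 1778 FPKM with LPS, so that the groups were far apart relative to their spread (adjusted p = 0.00307). Rpl34 was at 45.5, 41.7 and 48.5 FPKM in the controls and 21.3, 27.5 and 27.9 FPKM with LPS (SE 0.146, adjusted p = 0.00132). The large-subunit and small-subunit members were alike, with medians of 0.02 and 0.06.

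LPS-MIC-1 against LPS in C2C12 was broadly higher. Of 75 members, 58 rose and 2 fell at a limma adjusted p under 0.05, against 41.4% higher and 43.2% lower among all genes tested. The member median was 0.61 on the log2 scale and that of all genes -0.05. In 60 members every LPS-MIC-1 library was above every LPS library, 41.8% of all genes doing so, and in 1 member it was below, against 43.7%. The log2 fold change was above 0 in 70 members, against 48.8% of all genes. At the thresholds of the study 13 rose and 0 fell, against 24.3% and 25.6%, and in LPS-MIC-1 against control 15 rose and 0 fell, against 21.1% and 22.1%. Both subunits moved alike, with medians of 0.62 for the large and 0.61 for the small subunit. With equal total FPKM 65 rose and 2 fell, with quantile normalisation 51 rose and 8 fell (median 0.33), and without replicate 1 or replicate 3 of LPS-MIC-1 57 rose in either case.

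Rpl30, a small protein of the large subunit, changed most. It was at 33.9, 29.4 and 31.6 FPKM in the controls, 20.3, 21.0 and 25.4 FPKM with LPS, and 2311, 2277 and 3022 FPKM with LPS-MIC-1. The LPS-MIC-1 values were thus in the range of abundant members, and the others were among the lowest of the family. The ratio of means was 114 and the log2 fold change 6.82 (SE 0.13, limma adjusted p = 4.04e-09). In muscle Rpl30 was at 303 to 365 FPKM in all 9 libraries.

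Rpl34 and its pseudogene row moved together. Rpl34 was at 21.3, 27.5 and 27.9 FPKM with LPS and 147, 122 and 172 FPKM with LPS-MIC-1, and the log2 fold change was 2.52 (SE 0.146, limma adjusted p = 7.38e-07). Rpl34-ps1 was at 2.12, 2.59 and 6.79 FPKM with LPS and at 555, 547 and 609 FPKM with LPS-MIC-1. In the control libraries it was at 0.665, 3.28 and 3.71 FPKM, and in muscle it was at most 0.909 FPKM. The sum of both rows was 23.4 to 34.7 FPKM with LPS and 670 to 781 FPKM with LPS-MIC-1, so most of the difference between these groups was in the pseudogene row.

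The next 3 were also scarce members. Rps19 was at 11.7, 9.65 and 9.02 FPKM with LPS and 57.1, 50.7 and 68.4 FPKM with LPS-MIC-1 (log2 fold change 2.52, SE 0.193, limma adjusted p = 4.06e-06). Rps6 was at 10.4, 7.85 and 8.99 FPKM with LPS and 33.9, 36.7 and 51.6 FPKM with LPS-MIC-1 (2.14, SE 0.164, adjusted p = 4.22e-06). Rpl26, which also regulates p53 translation, was at 6.93, 4.85 and 8.58 FPKM with LPS and 14.6, 16.1 and 25 FPKM with LPS-MIC-1 (1.44, SE 0.257, adjusted p = 0.000855). None of the groups overlapped. Among the 5 tested members with a mean over all 9 libraries under 100 FPKM the median was 2.14, and among the 70 others it was 0.60. That mean includes the LPS-MIC-1 libraries, so the split is not independent of the change. Rpl30, scarce in control and LPS, counts among the 70 others.

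Rpl41, the most abundant member by mean over the 9 libraries, rose as well. It was at 3593, 3834 and 4349 FPKM with LPS and 10318, 8777 and 11336 FPKM with LPS-MIC-1, and at 3223, 3282 and 3267 FPKM in the controls. It thus stood alone at the top of the LPS-MIC-1 libraries. It was 1.37 higher in LPS-MIC-1 than in LPS on the log2 scale (SE 0.124, limma adjusted p = 1.24e-05), above the member median of 0.61.

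Only Rps15a and Rps3 were called lower. Rps15a was at 95.9, 104 and 105 FPKM with LPS and 72.2, 75.1 and 92.3 FPKM with LPS-MIC-1, close to the 75.9 to 80.8 FPKM of control, with a log2 fold change of -0.36 (SE 0.0918, limma adjusted p = 0.00622). Rps3, which also acts in DNA repair, was at 651, 664 and 708 FPKM with LPS and 548, 492 and 667 FPKM with LPS-MIC-1, so the groups overlapped. Its log2 fold change of -0.26 (adjusted p = 0.0459) was no longer called when any 1 library other than LPS-MIC-1 replicate 3 was left out (adjusted p up to 0.131), and was -0.38 without that replicate (adjusted p = 0.000506).

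LPS-MIC-1 against control in C2C12 gave 60 members higher and 0 lower at a limma adjusted p under 0.05 on the deposited scale, against 39.5% and 41.8% of all genes, with a member median of 0.65 and an all-gene median of -0.06. Part of this depended on scaling, since equal total FPKM gave 49 higher and 14 lower (median 0.27, all genes -0.43) and quantile normalisation 37 higher and 22 lower (0.14, all genes -0.09). Every LPS-MIC-1 library was above every control library in 62 members and below in 0, against 40.3% and 42.7% of all genes, and the log2 fold change was above 0 in 72 members, against 48.2% of all genes. The 5 highest were Rpl30 (6.31), Rps6 (1.81), Rps19 (1.71), Rpl34 (1.69) and Rpl41 (1.63), and all 5 were called under each of these scalings. This comparison shares its LPS-MIC-1 libraries with the preceding one, and so is not independent of it.

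**Figure D4:**
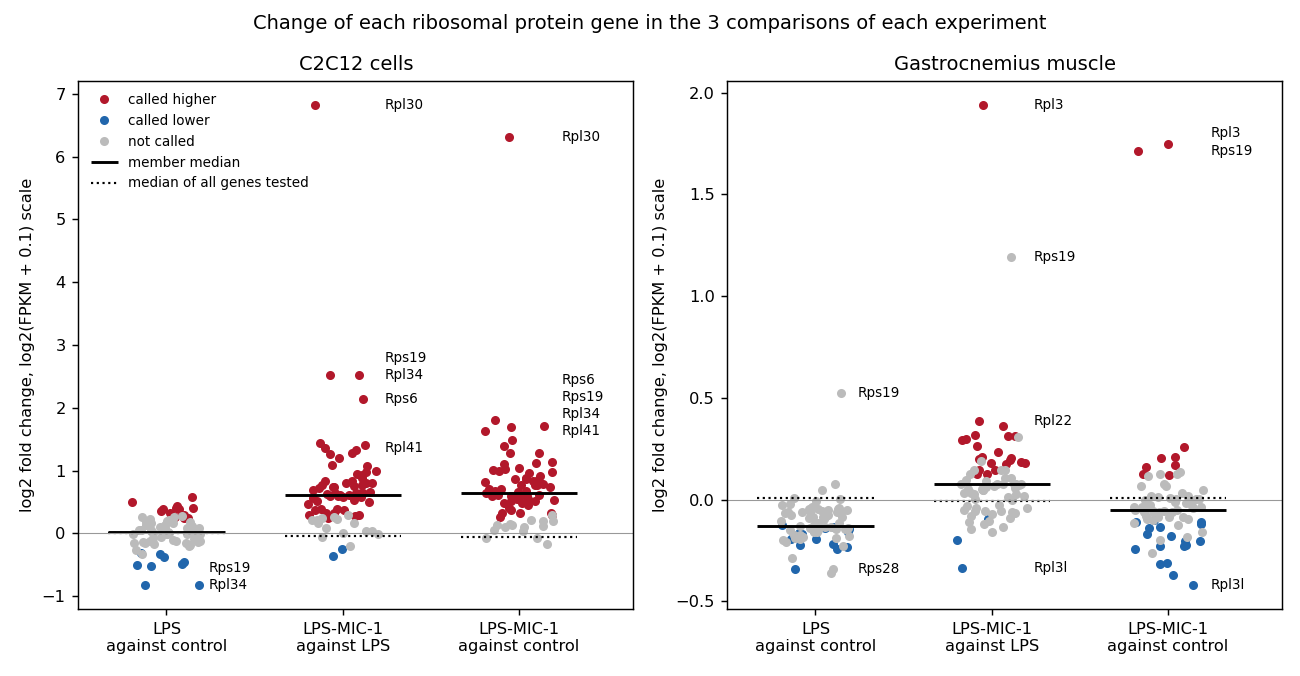
Log2 fold change of every tested member, on the log2(FPKM + 0.1) scale, in 3 comparisons for C2C12 (left, 75 members) and muscle (right, 77 members). Red and blue points were called higher or lower by limma at an adjusted p under 0.05, solid lines mark the member median and dotted lines the median of all genes, with Rpl30 at 6.82 and Rpl3 at 1.94 farthest from the member medians of 0.61 and 0.07 in LPS-MIC-1 against LPS.

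In muscle, LPS against control gave small differences. Of 77 members, 16 fell and 0 rose at a limma adjusted p under 0.05, against 7.48% lower and 8.25% higher among all 9475 genes tested. At an unadjusted p under 0.05, 0 members were higher and 36 lower, but the share of all genes at that limit was not counted. The member median was -0.13 on the log2 scale and that of all genes 0.01. Only 5 members had a log2 fold change above 0, against 50.9% of all genes. In 39 members every LPS library was below every control library and in 0 above, against 17.7% and 18.8% of all genes. With a change of more than 1 on the log2 scale required besides an adjusted p under 0.05, 0 members rose or fell, against 0.654% and 0.591%. The log2 fold changes lay close together, 76 of 77 being within 0.25 of the member median, a window that also holds 0. Equal total FPKM gave 0 higher and 10 lower (member median -0.10, all genes 0.03). Quantile normalisation gave 0 higher and 20 lower (-0.13, all genes 0.004). Shares of all genes called on these 2 scales were not counted. The count of 16 fell to 7 without control replicate 2, 8 without control replicate 3, and 7, 9 and 6 without LPS replicates 1, 2 and 3, respectively, with a member median of -0.16 to -0.10.

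Markers of other cells differed between the same libraries. Endothelial markers summed to 86.7 to 92.0 FPKM in the controls and 55.3 to 57.5 FPKM with LPS, with 5 of 6 tested called lower. Adipocyte markers summed to 288 to 294 FPKM in the controls and 220.4 to 244 FPKM with LPS. Of 2 tested adipocyte markers, 1 was called lower (-0.34), and the other was at 0.85 and not called. Red cell markers were higher with LPS, at 607 to 651 FPKM against 437 to 529 FPKM, with 3 of 3 called. With LPS-MIC-1 these lists summed to 83.7 to 93.0, 324 to 352 and 542 to 604 FPKM. The endothelial sum was near control, but single endothelial markers were not. In LPS-MIC-1 against control, 1 of 6 was called higher and 3 lower (median -0.39, range -1.56 to 1.62). The part of these markers in the changes of the members was not tested.

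Among the 5 lowest of the called members were Rps28, Rps16, Rpl12 and Rps27l. Rps28, a small-subunit protein at the messenger exit, was at 82.5, 98.2 and 88.6 FPKM in the controls and 66.9, 73.8 and 71.1 FPKM with LPS, a log2 fold change of -0.34 (SE 0.0697, limma adjusted p = 0.0132). Rps16 was at 409, 449 and 426 FPKM in the controls and 357, 362 and 366 FPKM with LPS (-0.24, SE 0.0382, adjusted p = 0.004). In both genes every LPS library was below every control library.

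Rpl12, at the base of the stalk, was at 517, 572 and 540.3 FPKM in the controls and 445, 480.3 and 459.6 FPKM with LPS (-0.23, limma adjusted p = 0.0158). Rps27l fell by -0.22 (limma adjusted p = 0.049), a call that was not kept with equal total FPKM (adjusted p = 0.117). Again no LPS library reached a control library in either gene.

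LPS-MIC-1 against LPS in muscle had 22 members higher and 3 lower at a limma adjusted p under 0.05, against 28.3% higher and 28.2% lower among all genes. The member median was 0.07 and that of all genes -0.01, and 55 members were above 0, against 49.3% of all genes. The groups did not overlap for 30 members higher and 9 lower, against 32.5% and 31.7%, and past the same fold threshold 1 member, Rpl3, rose and 0 fell, against 9.67% and 5.44%. Equal total FPKM moved the median of all genes to 0.12 and that of the members to 0.20, with 55 higher and 1 lower, and quantile normalisation moved them to -0.12 and 0.05, with 20 higher and 11 lower. Rpl3 stood apart, with only Rpl3 and Rps19 more than 1 from the member median, and 75 of 77 members within 0.5. Without LPS-MIC-1 replicate 3 there were 20 higher and 3 lower.

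After Rpl3, the highest of the called members were Rpl22, Rpl12, Rpl4 and Rpl10a, while Rps19 was at 1.19 and not called. By subunit, 11 of 46 large-subunit and 11 of 31 small-subunit members were called higher, with medians of 0.08 and 0.05. Rpl22 was at 33.5, 33.5 and 29.3 FPKM with LPS and 42.6, 40.1 and 43.3 FPKM with LPS-MIC-1 (0.39, SE 0.0629, limma adjusted p = 0.000899). Rpl10a was at 267, 268 and 269 FPKM with LPS and 334, 335 and 328 FPKM with LPS-MIC-1, the tightest separation of these (0.31, SE 0.0351, adjusted p = 0.000109). Rpl12 (0.36) and Rpl4 (0.32) rose likewise. These 4 remained called with equal total FPKM and with quantile normalisation.

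Among the 3 members called lower were Rpl3l and Rpl26. Rpl26 was at 541, 576 and 559 FPKM with LPS and 503, 501 and 456 FPKM with LPS-MIC-1 (-0.20, SE 0.0417, limma adjusted p = 0.00354), but was not called with equal total FPKM (-0.07, adjusted p = 0.052). Rpl3l was the only member called lower on all 3 scales.

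LPS-MIC-1 against control in muscle had 9 members higher and 18 lower at a limma adjusted p under 0.05, against 30.0% and 28.5% of all genes. The member median was -0.05 and that of all genes 0.01, with 25 members above 0 against 50.6% of all genes. The groups did not overlap for 10 members higher and 15 lower, against 33.4% and 31.1%, and past the same fold threshold Rpl3 and Rps19 rose and 0 members fell, against 9.33% and 6.12%. The balance turned with scaling, with 30 higher and 4 lower at equal total FPKM (member median 0.11, all genes 0.16) and 9 higher and 31 lower with quantile normalisation (-0.09, all genes -0.11). Without LPS-MIC-1 replicate 3 there were 7 higher and 15 lower. The family as a whole therefore had no direction against control that held on every scale.

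Beyond Rpl3, the highest called members in that comparison were Rps19, Rpl10a, Rps15a and Rpl22. Rps19 was at 0.456, 0.751 and 0.756 FPKM in the controls, 0.613, 1.86 and 0.761 FPKM with LPS, and 3.90, 2.14 and 1.49 FPKM with LPS-MIC-1. It was 1.71 higher than in control on the log2 scale (SE 0.46, limma adjusted p = 0.0122) at levels near the lower limit. Group means were 0.654, 1.08 and 2.51 FPKM, so Rps19 passed the 1 FPKM filter through the LPS-MIC-1 libraries. Its call and its place past the fold threshold are therefore not independent of that filter. With the pseudogene row Rps19-ps3 added, the groups overlapped. Rpl10a rose by 0.26 (adjusted p = 0.000323). Rps15a and Rpl22 rose by 0.21 and 0.20 and were not called with quantile normalisation (adjusted p = 0.296 and 0.212). Among the 5 lowest of the called members were Rpl3l (-0.42), Rps27l (-0.37), Rpl31 (-0.31) and Rps26 (-0.24), of which Rpl31 and Rps26 were not called with equal total FPKM (adjusted p = 0.147 and 0.258).

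Rps27 and Rps27l are another paralog pair, and Rps27l is a known target of p53. In C2C12 Rps27l was at 173, 159 and 149 FPKM in the controls, 108, 109 and 128 FPKM with LPS, and 279.7, 268 and 324 FPKM with LPS-MIC-1. The groups did not overlap, and Rps27l was 1.34 higher in LPS-MIC-1 than in LPS on the log2 scale (SE 0.0987, limma adjusted p = 3.28e-06), whereas Rps27 differed by -0.21 (adjusted p = 0.255). In muscle Rps27l was at 139, 153 and 153 FPKM in the controls, 135, 121 and 125 FPKM with LPS, and 109, 112 and 124 FPKM with LPS-MIC-1. Rps27 was at 778, 804 and 820.3 FPKM with LPS and 1074, 959 and 919.9 FPKM with LPS-MIC-1, and rose by 0.29 (adjusted p = 0.00151).

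The remaining paralog parents were abundant in both tables. Rpl10, at the peptidyl transferase site, averaged 2373, 2362 and 2919.8 FPKM in C2C12 control, LPS and LPS-MIC-1, and 625, 621 and 655 FPKM in muscle. Rpl39 of the exit tunnel averaged 506, 608 and 794 FPKM in C2C12 and 145, 152 and 146 FPKM in muscle. The X-linked Rps4x averaged 1515, 1517 and 1768 FPKM in C2C12 and 239, 227 and 261 FPKM in muscle.

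Genes that build ribosomes were also counted. The list held 53 tested ribosome assembly genes, which encode nucleolar processing and export factors. In C2C12 LPS against control 45 fell and 2 rose (median -0.86), beside 32.1% and 31.1% of all genes. In LPS-MIC-1 against LPS 46 rose and 2 fell (0.97), beside 41.4% and 43.2%. In LPS-MIC-1 against control 27 rose and 15 fell (0.23), beside 39.5% and 41.8%. This last balance of assembly genes turned with equal total FPKM, to 17 higher and 26 lower (-0.14). Dkc1, the pseudouridine synthase of box H/ACA particles, fell from a mean of 29.1 to 7.53 FPKM with LPS (log2 fold change -1.95, limma adjusted p = 1.31e-06), and Nop56, a core protein of box C/D particles, rose from 51.7 to 293 FPKM with LPS-MIC-1 against LPS (2.50, adjusted p = 9.99e-09). Cell division markers were also lowest with LPS, at 966 to 988 FPKM in the controls, 290.4 to 303 FPKM with LPS and 902 to 1329 FPKM with LPS-MIC-1. In LPS-MIC-1 against control, 4 of 12 cell division markers were called higher and 6 lower (median -0.63), beside 39.5% and 41.8% of all genes. With equal total FPKM, 4 were higher and 8 lower (-1.01). The part of cell division markers was not tested.

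In muscle, 3 assembly genes rose and 0 fell in LPS against control (median 0.03), beside 8.25% and 7.48% of all genes. In LPS-MIC-1 against LPS 40 rose and 2 fell (0.43), beside 28.3% and 28.2%. In LPS-MIC-1 against control 39 rose and 4 fell (0.42), beside 30.0% and 28.5%. Rrs1, needed for large-subunit assembly, averaged 7.27 FPKM in the controls, 6.68 FPKM with LPS and 21.1 FPKM with LPS-MIC-1, and was 1.65 higher than in LPS on the log2 scale (limma adjusted p = 1.74e-07). Wdr43, of the small-subunit processome, rose by 1.08 (adjusted p = 7.1e-07). The excess of higher over lower calls was kept with equal total FPKM (44 and 2) and with quantile normalisation (32 and 4), and without LPS-MIC-1 replicate 3 the counts were 36 and 2 against LPS and 35 and 2 against control.

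The ribosomal proteins of the mitochondrion were mostly called lower in the muscle LPS-MIC-1 samples. Of 75 tested, 2 rose and 51 fell in LPS-MIC-1 against LPS, where 28.3% of all genes rose and 28.2% fell. The median log2 fold change was -0.30, beside 0.07 for the cytosolic members. Against control 4 rose and 48 fell, beside 30.0% and 28.5% of all genes. Without LPS-MIC-1 replicate 3 these counts were 2 and 45 against LPS and 3 and 42 against control. In LPS against control 7 rose and 1 fell, beside 8.25% and 7.48% of all genes. In C2C12 both families were mostly higher in LPS-MIC-1 against LPS, the mitochondrial one with 57 of 74 higher, 9 lower and a median of 0.89. Of all genes, 41.4% were higher and 43.2% lower there. The difference between the families was not tested.

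Regulators and factors were mixed. Of 19 tested translation factors with a TOP messenger, 10 rose and 4 fell in muscle LPS-MIC-1 against LPS, where 28.3% of all genes rose and 28.2% fell, and Eef1a1, the elongation factor that delivers aminoacyl-tRNA, rose from a mean of 96.5 to 258 FPKM (log2 fold change 1.38, limma adjusted p = 0.0002, and 1.13 without LPS-MIC-1 replicate 3). In C2C12 7 rose and 5 fell in the same comparison, against 41.4% and 43.2% of all genes, and quantile normalisation turned the balance to 4 and 12. Pabpc1, the poly(A) binding protein, fell by -1.69 (adjusted p = 2.6e-08). Of 24 translation control genes in muscle, 10 rose and 4 fell. Ddit4, an inhibitor of mTORC1, was at 2.48, 2.64 and 2.41 FPKM with LPS and 231, 254 and 234 FPKM with LPS-MIC-1 (6.52, adjusted p = 1.22e-09). Of 14 RNA polymerase I genes and factors 4 rose and 1 fell, a share of higher genes near that of all genes. Without LPS-MIC-1 replicate 3, 10 factors rose and 5 fell, 10 translation control genes rose and 3 fell, and 2 RNA polymerase I genes rose and 1 fell. Myc, which drives ribosome production, rose from 0.468 to 3.55 FPKM (2.68, limma adjusted p = 4.71e-06), at levels near the 1 FPKM filter. The mean used for that filter includes the LPS-MIC-1 libraries, so the call is not independent of it. In muscle LPS against control, Myc was called lower (-1.14).

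Ribosomal fusion genes and paralogs outside the naming rule followed the family in C2C12. There 5 of 6 rose and 0 fell in LPS-MIC-1 against LPS, beside 41.4% and 43.2% of all genes. Rpl36al was among those higher (0.74, limma adjusted p = 6.13e-05). In muscle 0 of 6 rose and 2 fell in that comparison, beside 28.3% and 28.2% of all genes, so the share of lower genes was near that of all genes. Rpl7l1 was among those lower (-0.28, limma adjusted p = 0.0106). The counts were also 0 and 2 without LPS-MIC-1 replicate 3.

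**Figure D5:**
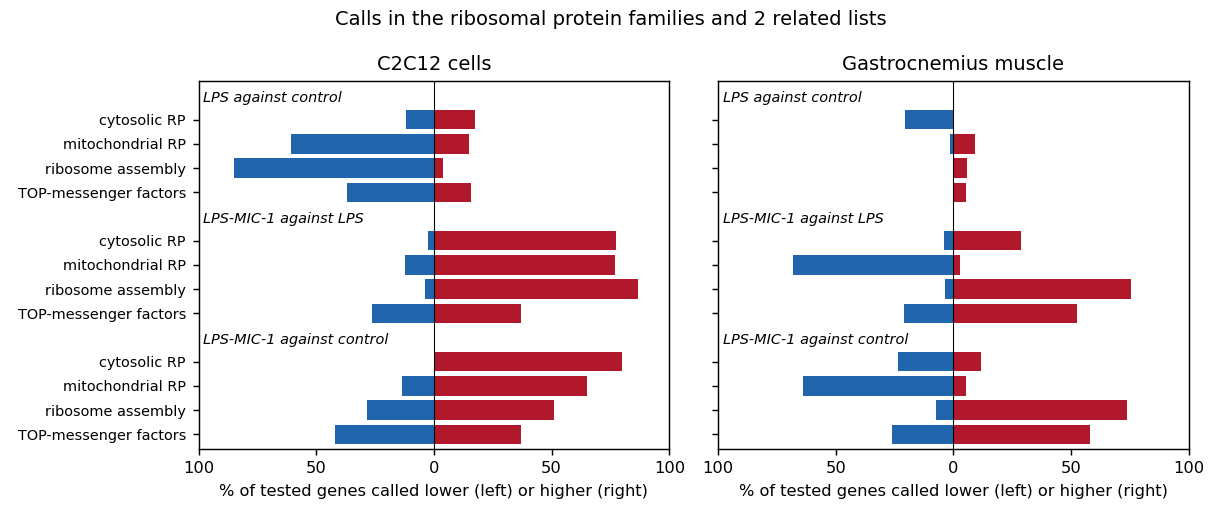
Percent of tested genes called lower (left, blue) or higher (right, red) by limma at an adjusted p under 0.05, for cytosolic and mitochondrial ribosomal proteins (RP), ribosome assembly genes and TOP-messenger translation factors, in 3 comparisons for C2C12 and muscle. In muscle LPS-MIC-1 against LPS, 51 of 75 mitochondrial members fell and 2 rose, and 40 of 53 assembly genes rose and 2 fell. Of 77 cytosolic members, 22 rose and 3 fell, with the share of higher members near that of all genes. Of all genes, 28.2% fell and 28.3% rose there.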

How the data were processed

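RNA-seq of 18 libraries was analysed from 2 tables of FPKM deposited by the authors, who quantified reads with kallisto, imported them with tximport and normalised them with DESeq2 (mm9 per the submitters' processing notes). The deposited FPKM had equal median-ratio factors in all 9 libraries of a table, so they were already scaled that way. Reads per library were not given in the sources used here, so the depth is unknown. Total FPKM ranged from 547475 to 797734 in C2C12 and from 634197 to 740810 in muscle. The authors' tables of fold changes and p-values were not used, nor were 9 unnamed value columns of the muscle table.

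Values were tested as log2(FPKM + 0.1) with limma 3.58.1 in R 4.3.3 (group means, 3 contrasts per table, empirical Bayes with trend), over genes with a mean above 1 FPKM, with Benjamini-Hochberg adjustment over all genes of the table (10877 in C2C12, 9475 in muscle). Fold changes on that scale understate changes of low genes. Calls were adjusted p under 0.05 at any fold size. The exact permutation test of 3 against 3 cannot go below p = 0.1 and was not used. The fit was tested on simulated data. Other scalings, filters, pseudocounts and omissions of single libraries were computed as well.

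Named genes were Rpl3 and Rpl3l, paralog pairs, the 5 most and 3 least abundant members, the 5 highest and 5 lowest called members per comparison, and up to 2 called genes per related list. Single-gene results of 2 genes that this rule picked are not reported here, though both genes stayed in every fit and count. Members and lists were chosen with earlier results of these data known. Of the 77 symbols, 76 are RefSeq symbols, and Rps3a is an older one. Replicate numbers did not pair libraries, since deviations of libraries with the same number correlated at -0.0757 to 0.0823.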

Additional observations from a re-analysis of the deposited data

Results flagged for a closer look

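The 2 experiments gave opposite directions for 8 of the named members, each with groups that did not overlap within either experiment. Such groups were common among all genes. Over the 3 comparisons, 39.4% to 43.7% of genes per direction did not overlap in C2C12, and 17.7% to 33.4% in muscle. How many of all genes had opposite directions in both experiments was not counted, so 8 is not read as a trait of the family. The difference between experiments was not tested, and the C2C12 libraries labelled control and LPS carried macrophage markers. In LPS against control, Rps24 was at -0.17 in muscle and 0.40 in C2C12 on the log2 scale, Rps27 at -0.13 and 0.51, and Rps28 at -0.34 and 0.19. The C2C12 value of Rps28 turned to -0.15 with equal total FPKM and to -0.23 with quantile normalisation, so its opposite direction was not kept on those scales. In LPS-MIC-1 against LPS, Rpl26 was at -0.20 in muscle and 1.44 in C2C12, and Rps15a at 0.20 and -0.36. In LPS-MIC-1 against control, Rpl31 was at -0.31 in muscle and 0.96 in C2C12, Rps26 at -0.24 and 0.70, and Rps27l at -0.37 and 0.85. These last 3 kept opposite signs with equal total FPKM and with quantile normalisation.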

How the results depend on the processing

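Scaling mattered most. With equal total FPKM, C2C12 LPS against control had 0 members higher and 54 lower (median -0.31), and with quantile normalisation 6 and 46 (-0.22). LPS-MIC-1 against LPS in C2C12 kept its direction, with 8 lower and a median of 0.33 under quantile normalisation. LPS-MIC-1 against control in C2C12 had 14 lower (median 0.27) with equal total FPKM and 37 higher and 22 lower (0.14) with quantile normalisation, and Rps27 turned from 0.30 to -0.0747 and -0.26. In muscle, equal total FPKM gave 10 lower in LPS against control, 55 higher and 1 lower in LPS-MIC-1 against LPS (0.20), and 30 higher and 4 lower against control (0.11). Quantile normalisation gave 11 and 31 lower in the last 2 comparisons (-0.0866 against control). Without the 10 top genes, 73 members held 18.0%, 16.4% and 20.6% of FPKM in C2C12 control, LPS and LPS-MIC-1, and all 77 held 7.85%, 7.03% and 7.26% in muscle. Median-ratio scaling changed nothing.

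Where a log2 change beyond 1 was required as well, with the adjusted p limit at 0.001 for C2C12 and 0.05 for muscle, 0 members were called in C2C12 LPS against control or in muscle LPS against control, 13 higher and 0 lower in C2C12 LPS-MIC-1 against LPS, 15 higher in C2C12 LPS-MIC-1 against control, and 1 and 2 higher and 0 lower in muscle LPS-MIC-1 against LPS and against control. By limma with only the 6 libraries compared, C2C12 LPS against control had 24 higher and 19 lower. The 2 members lower in C2C12 LPS-MIC-1 against LPS became 1 without a filter, without a trend, or with 6 libraries. The 16 members lower in muscle LPS against control became 10 without a filter, 6 without a trend, and 36 at an unadjusted p under 0.05, which gave 5 lower in muscle LPS-MIC-1 against LPS. The cause was not tested.

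Leaving out 1 library in turn gave, for C2C12, 6 to 24 higher and 7 to 19 lower in LPS against control (median -0.01 to 0.06), 53 to 63 and 1 to 5 in LPS-MIC-1 against LPS (0.51 to 0.68), and 56 to 63 and 0 to 4 in LPS-MIC-1 against control (0.55 to 0.69). Without LPS-MIC-1 replicate 3, C2C12 LPS against control had 24 higher and 19 lower, LPS-MIC-1 against LPS 5 lower and against control 4 lower. The 13 higher in C2C12 LPS against control became 7, 6, 8 and 7 without control replicates 1 and 2 and LPS replicates 2 and 3. The 2 lower in C2C12 LPS-MIC-1 against LPS became 1 on leaving out any other library. For muscle the ranges were 0 higher throughout and 6 to 22 lower (-0.16 to -0.10), 16 to 24 and 2 to 4 (0.05 to 0.09), and 5 to 10 and 12 to 24 (-0.0835 to -0.0245), the 5 being without control replicate 1. The family's share stayed at 19.1 to 19.3%, 15.4 to 16.0% and 22.8 to 23.6% in C2C12 control, LPS and LPS-MIC-1, and at 4.34 to 4.44%, 4.08 to 4.12% and 4.63 to 4.74% in muscle. Rpl3l stayed at 96.57 to 96.64%, 96.8 to 96.9% and 84.7 to 87.9% of its pair in muscle, and at 0.0246 to 0.0284%, 0.0215 to 0.0298% and 0.00964 to 0.0200% in C2C12. Rpl3 in C2C12 LPS-MIC-1 against control was at 0.00021 without LPS-MIC-1 replicate 2. In an alternative chosen after seeing the data, muscle lists were counted without LPS-MIC-1 replicate 3, and 2 counts moved by over 1.5 times, RNA polymerase I genes higher than in LPS from 4 to 2 and assembly genes lower than in control from 4 to 2.

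The replicate block, which used numbers that do not pair libraries, gave 14 higher and 11 lower, 61 and 2, and 60 and 0 in the 3 C2C12 comparisons, and 0 and 14, 22 and 2, and 8 and 18 in the 3 muscle comparisons. Of 2063 alternative values of single genes, 1949 kept direction and call, 97 lost the call, 14 gained it and 3 changed sign. With 3 libraries per group and no read depth, small differences in low members such as Rps19 were not resolved.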

Other observations

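Another paralog pair of the translation machinery behaved in muscle as a counterpart to Rpl3 and Rpl3l. It was picked after its values were seen. Eef1a1, the general elongation factor gene, was at 116, 121 and 114 FPKM in control, 96.9, 95.1 and 97.4 FPKM in LPS, and 213, 211 and 351 FPKM in LPS-MIC-1. Eef1a2, the form of adult muscle and neurons, was at 326 to 349 FPKM in control, 344 to 368 FPKM in LPS and 278 to 306 FPKM in LPS-MIC-1. The limma log2 fold changes of LPS-MIC-1 against LPS were 1.38 (adjusted p = 0.0002) and -0.31 (adjusted p = 0.000561), and they were 1.51 and -0.18 with equal total FPKM, and 1.13 and -0.28 without LPS-MIC-1 replicate 3. LPS-MIC-1 replicate 3, with the most macrophage marker FPKM, had the highest Eef1a1, and the part of these markers was not tested. In the C2C12 table Eef1a1 averaged 8008 FPKM.

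The pseudogene row Rps19-ps3 was at 1.85 to 6.60 FPKM in muscle control, 2.54 to 3.46 FPKM in LPS and 0.310 to 1.75 FPKM in LPS-MIC-1, while Rps19 itself was higher in LPS-MIC-1. The sum of both rows was 2.60 to 7.06 FPKM in control, 3.15 to 5.08 FPKM in LPS and 3.16 to 4.21 FPKM in LPS-MIC-1, so the groups overlapped once the rows were summed.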
